A study of Mus musculus with 21 samples.

Results

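The nuclear-encoded subunits of the respiratory chain and the ATP synthase were followed in mouse embryonic stem cells (ESCs) with and without DDX6, a DEAD-box RNA helicase of P-bodies. The genes were protein-coding nuclear genes whose symbols begin with Ndufa, Ndufb, Ndufc, Ndufs, Ndufv, Sdha to Sdhd, Uqcr, Cyc1, Cox4i, Cox5, Cox6, Cox7, Cox8 or Atp5, without the Ndufaf assembly factors. This gave 86 of the 51467 genes in the count tables, with 36 in complex I, 4 in complex II, 9 in complex III, 20 in complex IV and 17 in complex V. Another 12 genes with such symbols are not annotated as protein-coding and were left out. *Ndufa4* and its paralog *Ndufa4l2* were placed in complex IV, where the NDUFA4 protein is found, despite their symbols.

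Wild type and *Ddx6* KO cells were V6.5 ESCs grown with LIF, 2i and serum. The *Ddx6* KO comprised 2 lines, made by CRISPR-Cas9 with a guide RNA against *Ddx6*, by sorting transfected GFP-positive cells and growing them from single cells. There were 3 wild-type cultures and 4 *Ddx6* KO cultures, 2 of each clone, and every culture was labelled with 500 µM 4-thiouridine (4sU) for 30 min. From the RNA of each culture, rRNA-depleted total RNA and purified 4sU-labelled RNA were sequenced as separate libraries. The 4sU RNA was made during the label, total RNA holds older and newer molecules, and the study read RNA stability from total over 4sU.

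As background, complexes I to IV pass electrons from NADH and succinate to oxygen, pumping protons out of the matrix at complexes I, III and IV, and the ATP synthase, complex V, uses the gradient. Complex II is encoded wholly in the nucleus, whereas the other complexes join nuclear subunits with a few that are encoded in mitochondrial DNA. Naive ESCs use both glycolysis and oxidative phosphorylation.

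The 7 total RNA libraries held 5724179 to 7369651 counts and the 7 libraries of 4sU RNA 2441639 to 3570192. Levels are in CPM, counts relative to a library total that was scaled by the TMM method, and 3 counts corresponded to at most 0.524 CPM before this scaling in total RNA and 1.23 CPM in 4sU RNA. *Ddx6* itself had 333, 383 and 391 CPM in wild-type total RNA. Clone 1 had 57.2 and 67.7 CPM of it, and clone 2 had 23.1 and 21.5 CPM. All 8 ESC markers examined were expressed, and their summed total RNA was 4037 to 4126 CPM in wild type and 4329 to 4582 CPM in *Ddx6* KO. Among them *Nanog* rose, from 623, 622 and 657 CPM to 970, 965, 945 and 940 CPM, and *Dppa5a* fell, from 478, 516 and 466 CPM to 263, 275, 270.2 and 274 CPM. Chromosomes of the markers were not examined, so *Nanog* was not set beside the chromosome 6 shift described below. Of 15 markers of other cells, 6 passed the expression filter. The 15 together summed to 61.1 to 65.6 CPM in wild-type total RNA and to 73.3 to 79.5 CPM in *Ddx6* KO. In total RNA 4 of the 6 rose, beside 19.5% of all genes that passed the filter, led by *Thy1*. It had 2.04, 3.28 and 2.30 CPM in wild type and 6.68, 7.32, 7.08 and 7.37 CPM in *Ddx6* KO. *Eomes* fell, with 13.3, 17.5 and 13.5 CPM in wild type and an overlapping 13.4, 11.2, 11.4 and 9.67 CPM in *Ddx6* KO. This fall was not called with DESeq2, with TMM within each RNA type or by library size only. *Hbb-bt* and *Ptprc* were at 0 in every library, and the part of these cells in the results was not tested.

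Most subunit mRNAs were lower in *Ddx6* KO. Genes were tested when at least 3 libraries reached 3 CPM, which held for 81 of the 86 subunit genes and 14518 genes in all. In total RNA 61 of the 81 fell, 4 rose and 16 were not called (edgeR quasi-likelihood test, Benjamini-Hochberg adjusted p below 0.05 over all tested genes). Over all tested genes, 31.0% were called lower and 19.5% higher. The median log2 difference was −0.36 for the subunits, with quartiles of −0.51 and −0.17, against −0.10 over all genes. Of the 81 subunits, 70 lay below the median of all genes. Among genes with at least 30 CPM in wild-type total RNA, 52 of 66 subunits fell, beside 45.0% of 6542 genes. Every *Ddx6* KO culture lay below every wild-type culture for 61 subunits in total RNA, a pattern seen in 32.0% of all tested genes. All *Ddx6* KO cultures lay above wild type for *Ndufa4*, *Ndufa5*, *Ndufa9*, *Ndufb2* and *Ndufs5*, a pattern in 20.4% of all genes.

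The choice of scaling shifts every gene alike. When counts were scaled by library size alone, the median of all genes moved from −0.10 to 0.06 in total RNA and from 0.00 to 0.21 in 4sU RNA, while the subunit median stayed 0.26 below all genes in total RNA and 0.28 below in 4sU RNA. On that scale 43 subunits were called lower and 4 higher in total RNA, with 19.4% of all genes lower and 29.4% higher. The changes below are relative to the TMM scale. In bulk RNA fewer cells of a type and less RNA per cell cannot be told apart. No label says that cultures of a line were independent, so the p-values measure only the spread between these cultures.

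All 5 complexes had a median below that of all genes in total RNA, under each of 4 scalings. In complex I, 23 of 36 subunits fell, 3 rose, and the median was −0.30. In complex II all 4 fell, with a median of −0.37. In complex III 8 of 9 fell, with a median of −0.39. In complex IV, 13 of the 15 tested subunits fell, *Ndufa4* rose, and the median was −0.45. In complex V, 13 of 17 fell, with a median of −0.43. The differences between complexes were not tested.

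**Figure D1:**
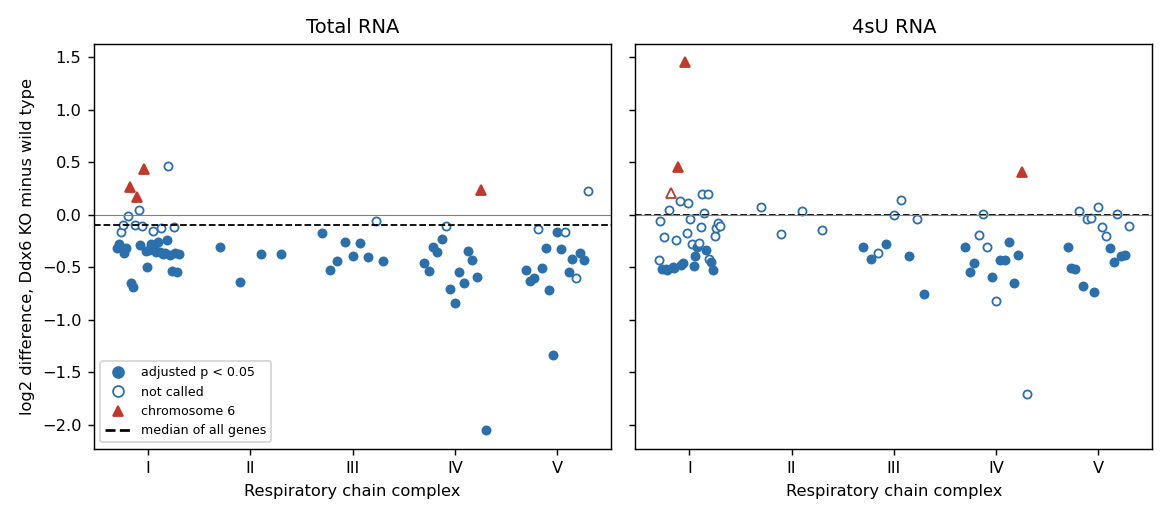
Log2 difference, *Ddx6* KO minus wild type, of each tested subunit gene by complex, in total RNA and in 4sU RNA; filled symbols passed the test, triangles mark genes on chromosome 6 and the dashed line is the median of all tested genes. In total RNA 70 of 81 subunits lie below the line, and on this TMM scale every subunit that rose in either RNA is a triangle.

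Complex I accepts electrons from NADH. Among its core subunits, some of which carry the flavin and the iron-sulfur clusters, *Ndufv2*, *Ndufs7*, *Ndufs3* and *Ndufv1* fell in total RNA by 0.55, 0.54, 0.36 and 0.36 on the log2 scale. *Ndufs1*, at −0.13, and *Ndufs8*, at −0.11, were not called. The accessory subunits lie around that core. *Ndufa7*, an accessory subunit on chr17:33824591-33838316 of mm10, had the smallest adjusted p of the complex. It stood at 150, 160 and 146 CPM in wild type, 98.1 and 94.9 CPM in clone 1, and 94.8 and 91.5 CPM in clone 2. Every *Ddx6* KO culture was below every wild-type culture, by −0.68 ± 0.0668 on the log2 scale (SE; edgeR adjusted p = 4.57e-13). Among the accessory subunits that fell, those next in size of change were *Ndufa6*, *Ndufb4*, *Ndufs6* and *Ndufv3*, with log2 differences from −0.64 to −0.38. Apart from *Ndufs1* and *Ndufs8*, the subunits not called were *Ndufa3*, *Ndufa8*, *Ndufa11*, *Ndufa12*, *Ndufab1*, *Ndufb7*, *Ndufb11* and *Ndufs5*, with values between −0.17 and 0.47. *Ndufs5* had 10 to 19 reads in a total RNA library.

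Complex II, succinate dehydrogenase, oxidizes succinate in the citric acid cycle and feeds the electrons into the chain. *Sdhb*, its iron-sulfur subunit on chr4:140961203-140979193, had 141, 147 and 136 CPM in wild type. The *Ddx6* KO cultures had 88.6 and 89.0 CPM in clone 1 and 94.8 and 91.1 CPM in clone 2, all below wild type. Its log2 difference was −0.63 ± 0.0679 (SE; edgeR adjusted p = 8.36e-12). The flavoprotein gene *Sdha* fell by 0.31, and the membrane anchor genes *Sdhc* and *Sdhd* each fell by 0.37, on the log2 scale.

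Complex III passes electrons from ubiquinol to cytochrome c. *Uqcr10*, which encodes a small subunit (chr11:4701973-4704342), measured 158, 156 and 141 CPM in wild type. It measured 116 and 104 CPM in clone 1 and 102 and 101 CPM in clone 2, so the groups did not overlap (log2 difference −0.52 ± 0.0669 SE; edgeR adjusted p = 1.96e-09). The catalytic subunits *Uqcrfs1*, the Rieske iron-sulfur protein, and *Cyc1*, cytochrome c1, fell by 0.40 and 0.17 on the log2 scale, and the call of *Cyc1* was lost when any of 4 cultures was left out. The core protein genes *Uqcrc1* and *Uqcrc2* fell by 0.39 and 0.27. *Uqcrh*, which encodes the hinge protein, was not called at −0.06, with overlapping cultures.

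Complex IV, cytochrome c oxidase, reduces oxygen, and its catalytic subunits are encoded in mitochondrial DNA. Of its nuclear subunits, *Cox6c* (chr15:35931976-35938246) was at 140.0, 147 and 143 CPM in wild type. Clone 1 had 95.1 and 82.9 CPM, and clone 2 had 88.4 and 86.9 CPM. No *Ddx6* KO culture reached wild type, and the log2 difference was −0.70 ± 0.0656 (SE; edgeR adjusted p = 9.6e-14). *Cox4i1*, *Cox5a*, *Cox7a2*, *Cox8a* and *Cox7a2l*, the last being a factor for supercomplexes of III and IV, fell by between 0.45 and 0.65 on the log2 scale. *Cox5b*, *Cox6a1*, *Cox6b1*, *Cox7b* and *Cox7c* fell by between 0.23 and 0.43.

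Complex V makes ATP. The catalytic β subunit gene *Atp5b* (chr10:128083273-128090391) was the most abundant of all subunit mRNAs per kilobase of exon, at 1462 CPM per kb in wild-type total RNA, ahead of *Cox4i1* at 739 and *Atp5a1* at 596. In CPM, not divided by length, *Atp5b* had 2806, 2849 and 2751 CPM in wild type and 1876, 1787, 1823 and 1778 CPM in *Ddx6* KO. The gap between the groups was far wider than either group, with a log2 difference of −0.63 ± 0.048 (SE; edgeR adjusted p = 6.05e-17), the smallest among the subunits. Of the other soluble F1 subunits, *Atp5a1*, *Atp5c1* and *Atp5e* fell by 0.53, 0.61 and 0.51 on the log2 scale, and *Atp5d* was at −0.14 with an adjusted p of 0.0823 (edgeR). The peripheral stalk genes *Atp5o*, *Atp5h* and *Atp5f1* fell by 0.43, 0.32 and 0.31, and *Atp5j* was not called at −0.16. *Atp5j2*, *Atp5k* and *Atp5mpl*, small membrane subunits, fell by 0.54, 0.42 and 0.37. *Atp5s*, a coupling factor gene, was not called at 0.23.

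**Figure D2:**
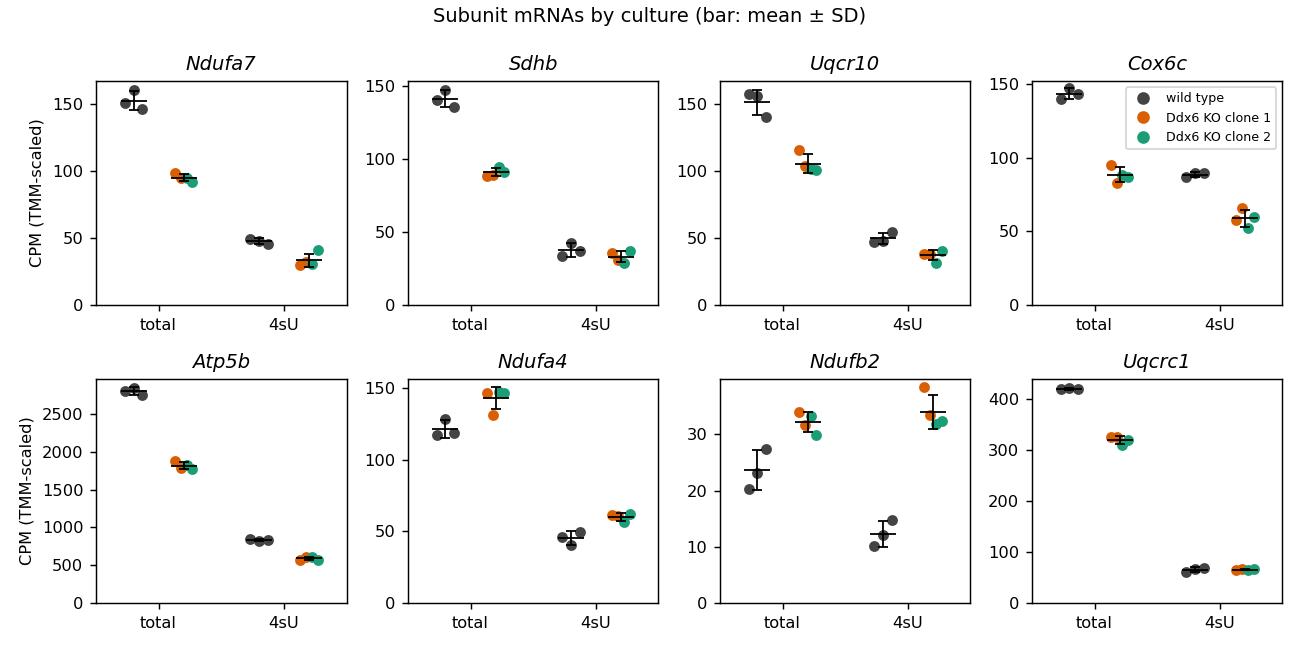
Total RNA and 4sU RNA in CPM for 8 subunit genes in each of the 3 wild-type and 4 *Ddx6* KO cultures, with the mean and SD of each group. For *Ndufa7*, *Sdhb*, *Uqcr10*, *Cox6c*, *Atp5b* and *Uqcrc1* all *Ddx6* KO cultures lie below wild type in total RNA, and for *Ndufa4* and *Ndufb2*, on chromosome 6, they lie above.

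In 4sU RNA the subunits were also lower relative to other genes. Of the 81, 36 fell, 3 rose and 42 were not called, where 21.0% of all tested genes were lower and 20.6% higher. The median log2 difference was −0.28, and that of all genes was 0.00. On the library-size scale the split changed to 13 lower and 12 higher, with 12.7% of all genes lower and 36.3% higher. All *Ddx6* KO cultures lay below wild type for 34 subunits (21.2% of all genes did so) and above it for *Ndufa4*, *Ndufa9*, *Ndufb2*, *Ndufs1* and *Ndufs4* (20.5% of all genes). By complex, 13 of 36 fell in complex I, 0 of 4 in complex II (0 at an unadjusted p below 0.05 and 0 with DESeq2 or limma-voom), 5 of 9 in complex III, 9 of 15 in complex IV and 9 of 17 in complex V. The median 4sU difference was −0.22 in complex I, −0.05 in complex II, −0.31 in complex III, −0.43 in complex IV and −0.31 in complex V, and only the complex II median changed sign on the library-size scale, to 0.15.

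*Atp5b* had the smallest adjusted p in complex V in 4sU RNA too. It had 847, 822 and 834 CPM in wild type and 569, 607, 610 and 570.2 CPM in *Ddx6* KO, a log2 difference of −0.50 (edgeR adjusted p = 2.31e-12) without overlap. *Cox7c*, the lead of complex IV, stood at 305, 335 and 274 CPM in wild type and at 192, 189, 181 and 214 CPM in *Ddx6* KO. These groups were separate, with a log2 difference of −0.65 (edgeR adjusted p = 1.06e-11). *Uqcrfs1* led complex III, with 85.9, 88.2 and 103 CPM in wild type and 65.9, 74.7, 69.2 and 71.7 CPM in *Ddx6* KO (−0.40; edgeR adjusted p = 0.000118). *Ndufa13*, a complex I accessory subunit also known as GRIM-19, had 76.2, 85.7 and 78.1 CPM in wild type and 62.5, 50.8, 49.1 and 61.2 CPM in *Ddx6* KO (−0.51; edgeR adjusted p = 4.75e-06). In neither of the last pair did the groups overlap. *Ndufa11*, *Ndufb7* and *Ndufb11* fell in 4sU RNA, by 0.52, 0.49 and 0.46 on the log2 scale, but were not called in total RNA, and their total over 4sU was not called either.

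Total over 4sU changed in few subunits. It fell in 11 of 81 and rose in none (8.60% of all tested genes lower and 3.78% higher, by the interaction of genotype and RNA type in edgeR). At an unadjusted p below 0.05, 4 were higher and 20 lower. DESeq2 called 0 higher and 6 lower, with 5.01% of all tested genes lower. With limma-voom 0 were higher and 9 lower, with 7.63% of all tested genes lower. The median log2 difference in the ratio was −0.10 for the subunits and −0.09 for all genes. They included *Ndufb2*, *Ndufv2*, *Ndufs1* and *Ndufs4* of complex I, *Sdha* and *Sdhb* of complex II, *Uqcrc1* and *Uqcrc2* of complex III, and *Atp5a1* and *Atp5g1* of complex V, with none of complex IV. The calls of *Ndufb2*, *Ndufv2* and *Uqcrc1* held without any single culture. That of *Ndufv2* was lost with the second 4sU run alone, and that of *Uqcrc1* with clone 1 alone. The count was 5 without the first or the second wild-type culture. Without the second culture it was 6 for clone 2 and 7 for clone 1. Shares of all tested genes are not given for fits without a culture. With TMM within each RNA type it was 5, and 3.97% of all tested genes were lower. The median was −0.40 in complex II, −0.17 in complex V and −0.11 in complex IV, and with TMM within each RNA type −0.31, −0.08 and −0.02. The complex I and III medians, −0.04 and −0.02, changed sign with DESeq2 size factors and with TMM within each RNA type.

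*Sdha* had the smallest adjusted p for the ratio in complex II. Its total RNA was 298, 316 and 327 CPM in wild type and 236, 258, 259.0 and 262 CPM in *Ddx6* KO. Its 4sU RNA was 87.3, 83.8 and 78.1 CPM in wild type and 95.7, 85.9, 87.0 and 82.0 CPM in *Ddx6* KO. The groups were separate in total RNA and overlapped in 4sU RNA. The log2 ratio was 1.77, 1.91 and 2.06 in wild type and 1.30, 1.58, 1.57 and 1.67 in *Ddx6* KO, with a difference of −0.39 ± 0.100 (SE; edgeR adjusted p = 0.00609). The call was lost without the third wild-type culture, at −0.31, and without the first culture of clone 1, at −0.30. It was also lost with clone 2 alone and with the second 4sU run alone.

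*Uqcrc1*, a core protein of complex III, had 419, 422 and 419 CPM in wild-type total RNA and 325, 326, 309 and 321 CPM in *Ddx6* KO. In 4sU RNA it had 60.8, 67.4 and 68.4 CPM in wild type and 64.0, 67.4, 64.7 and 66.2 CPM in *Ddx6* KO, overlapping. Its log2 ratio differed by −0.39 ± 0.0987 (SE; edgeR adjusted p = 0.00526). *Ndufv2*, which carries an iron-sulfur cluster of complex I, differed by −0.47 in the ratio (edgeR adjusted p = 0.00402), with log2 ratios of 2.06, 2.12 and 1.97 in wild type and 1.80, 1.38, 1.49 and 1.67 in *Ddx6* KO. *Atp5g1*, a gene for the c subunit of the ATP synthase ring, had log2 ratios of −2.17 to −1.86 in the wild-type cultures and −2.56, −2.75, −2.63 and −2.76 in *Ddx6* KO (−0.68; edgeR adjusted p = 0.0147). For all 3 the ratios of the groups did not overlap, and the call of *Atp5g1* was lost without the first wild-type culture, at −0.61, or the second, at −0.68. That call was also lost with either clone alone and with the first 4sU run alone. All of the *Atp5g1* coding sequence was also found in transcripts of other genes, a limit described below.

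**Figure D3:**
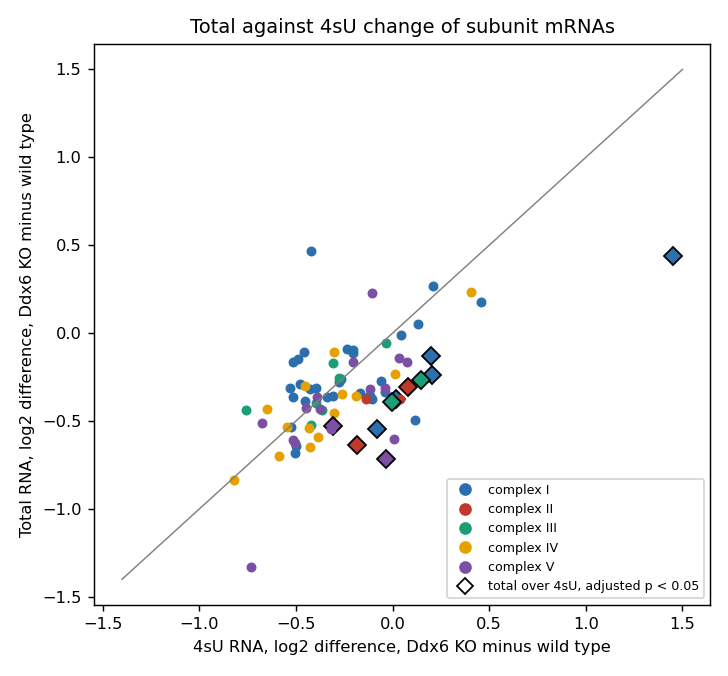
Log2 difference in total RNA against that in 4sU RNA, *Ddx6* KO minus wild type, for the tested subunits except *Ndufa4l2*, coloured by complex; diamonds mark the 11 with a lower total over 4sU. Most subunits lie below 0 on both axes, with *Ndufb2* far to the side of higher 4sU RNA (log2 difference 1.45).

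The lower subunit levels were seen in every *Ddx6* KO culture. Per culture, the subunits' median log2 level in total RNA, relative to wild type and minus that of all genes, was −0.24 and −0.27 in clone 1 and −0.26 and −0.28 in clone 2, and between −0.02 and 0.02 in wild type. In 4sU RNA it was −0.26 and −0.27 in clone 1 and −0.34 and −0.21 in clone 2. The complex II ratio was between −0.40 and −0.16 in the *Ddx6* KO cultures and between −0.09 and 0.11 in wild type. Complex II in 4sU RNA overlapped wild type. The complex III median in 4sU RNA was −0.11 in the second culture of clone 2 and between −0.34 and −0.30 in the other *Ddx6* KO cultures.

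The clones were then compared with each other. No subunit was called between clone 2 and clone 1 in either RNA (edgeR; 0.296% of all genes in total RNA and 0.172% in 4sU RNA were). At an unadjusted p below 0.05 there were 2 subunits in total RNA and 3 in 4sU RNA with edgeR, 2 and 1 with DESeq2, and 2 and 3 with limma-voom, and after adjustment none with either. The smallest p in total RNA was that of *Uqcrq*, a small complex III subunit, at 32.3 and 39.7 CPM in clone 1 and 45.1 and 53.9 CPM in clone 2 (log2 difference 0.45 ± 0.126 SE; edgeR adjusted p = 0.151, and between 0.137 and 0.629 over the fits). With clone 1 alone against wild type 52 subunits fell and 4 rose in total RNA, and with clone 2 alone 57 fell and 3 rose. The subunit median was −0.32 with clone 1 and −0.35 with clone 2, against −0.08 and −0.09 over all genes. Shares of all genes called are not given for these fits, and with both clones they were 31.0% lower and 19.5% higher.

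**Figure D4:**
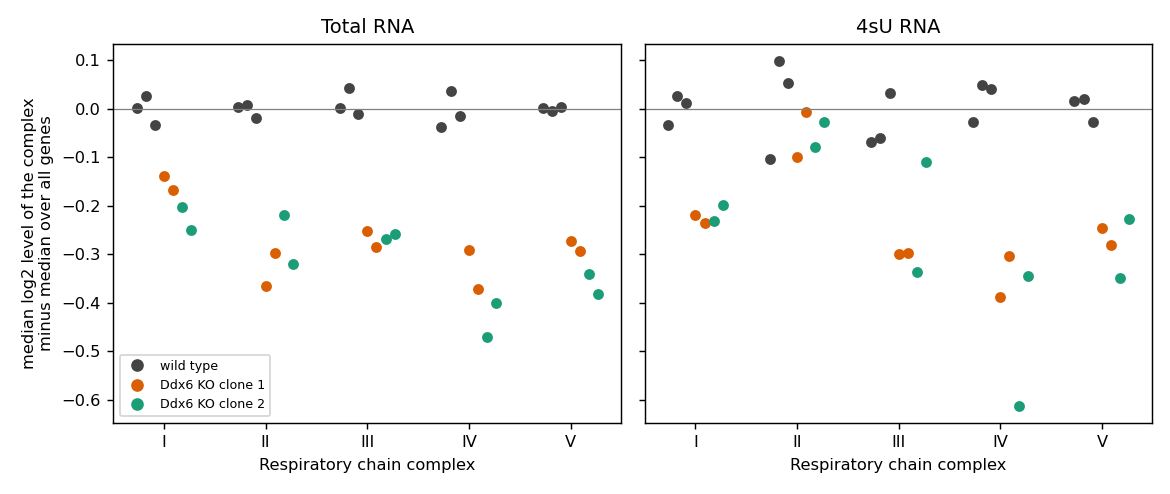
Median log2 level of the tested subunits of each complex in each culture, relative to wild type and minus the median of all tested genes, for total RNA and 4sU RNA. In total RNA all 4 *Ddx6* KO cultures lie below all 3 wild-type cultures in each complex, and in 4sU RNA complex II overlaps wild type.

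On the TMM scale every subunit that rose lies on chromosome 6, as do 735 of all tested genes. On that chromosome 431 of the 735 rose and 47 fell in total RNA, with a median log2 difference of 0.43, and in 4sU RNA 431 rose and 32 fell. Of the 77 tested subunits on other chromosomes, 61 fell and 0 rose in total RNA, and 36 fell and 0 rose in 4sU RNA with edgeR. Over all tested genes, chromosome 6 included, 31.0% fell and 19.5% rose in total RNA, and 21.0% and 20.6% did in 4sU RNA. Shares without that chromosome are not given. At an unadjusted p below 0.05, 0 of the 77 were higher in total RNA and 1 in 4sU RNA, and DESeq2 and limma-voom called 0 higher in either. *Ndufa4* (chr6:11900292-11907497) stood at 118, 129 and 118 CPM in wild-type total RNA and at 147, 131, 148 and 147 CPM in *Ddx6* KO (log2 difference 0.24 ± 0.0644 SE; edgeR adjusted p = 0.00167). The lowest *Ddx6* KO culture was just above the highest wild-type culture. In 4sU RNA *Ndufa4* had 45.8, 40.5 and 49.7 CPM in wild type and 61.4, 60.7, 56.3 and 62.0 CPM in *Ddx6* KO, without overlap (0.41; edgeR adjusted p = 0.000661).

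*Ndufa9* (chr6:126821721-126849125), an accessory subunit of complex I, had 143, 143 and 146 CPM in wild-type total RNA and 169, 161, 159 and 162 CPM in *Ddx6* KO, without overlap (0.18 ± 0.062 SE; edgeR adjusted p = 0.0153). *Ndufa5* (chr6:24518666-24528013) had 36.3, 40.0 and 38.7 CPM in wild type and 44.8, 45.9, 52.2 and 41.8 CPM in *Ddx6* KO (0.27; edgeR adjusted p = 0.0123), also without overlap. The call of *Ndufa5* was lost without the first wild-type culture, at 0.23, or the first culture of clone 2, at 0.22, and that of *Ndufa9* without the second wild-type culture, at 0.17. *Ndufb2* (chr6:39592574-39603382) differed most. Its total RNA was 20.4, 23.1 and 27.4 CPM in wild type and 34.0, 31.6, 33.3 and 29.9 CPM in *Ddx6* KO (0.44 ± 0.109 SE; edgeR adjusted p = 0.000575), and its 4sU RNA was 10.1, 12.03 and 14.8 CPM in wild type and 38.5, 33.5, 31.9 and 32.3 CPM in *Ddx6* KO (1.45 ± 0.162 SE; edgeR adjusted p = 4.67e-11). Its log2 ratio accordingly stood at 0.97, 0.91 and 0.87 in wild type, and the *Ddx6* KO cultures ranged from −0.18 to 0.06. *Ndufb2* shares 145 exon bases, 2.58% of its exons, with *Gm42420*, which had no counts.

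Several subunits exist as isoforms from separate genes, one of which is used by most tissues. *Cox7a1*, the heart and skeletal muscle isoform, had 23.8 CPM per kb in wild-type total RNA against 230.1 for *Cox7a2*. Its levels were 13.1, 12.8 and 12.2 CPM in wild type and 7.16, 5.62, 6.95 and 8.91 CPM in *Ddx6* KO, all lower (−0.83 ± 0.178 SE; edgeR adjusted p = 7.99e-05). *Cox7a2* was at 147, 151 and 157 CPM and at 113, 104, 100.2 and 99.5 CPM (−0.54; edgeR adjusted p = 2.35e-10), also without overlap. *Cox6b2*, the testis isoform, had 14.5 CPM per kb against 336 for *Cox6b1*, and its 8.70, 12.3 and 11.3 CPM in wild type overlapped the 9.22, 10.5, 9.70 and 10.8 CPM in *Ddx6* KO (−0.11; edgeR adjusted p = 0.597). *Cox6b1* was at 201, 214 and 209 CPM in wild type and at 181, 172, 180 and 176 CPM in *Ddx6* KO (−0.23; edgeR adjusted p = 0.000574).

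*Ndufa4l2*, a hypoxia-induced paralog of *Ndufa4*, had 5.97 CPM per kb in wild-type total RNA against 195 for *Ndufa4*. It was read 32, 38 and 30 times in wild type and 11, 3, 14 and 9 times in *Ddx6* KO, or 5.92, 6.22 and 4.59 against 1.75, 0.392, 1.84 and 1.38 CPM. The groups were separate and the log2 difference was −2.05 ± 0.34 (SE; edgeR adjusted p = 8.61e-07), resting on few reads. The c subunit is encoded by 3 genes for the same mature protein, and *Atp5g3*, at 270.2 CPM per kb, exceeded *Atp5g1* at 2.42 and *Atp5g2* at 2.54. Of the coding windows, 100% in *Atp5g1* and *Atp5g2* and 0% in *Atp5g3* were found in other genes, a limit described below. With only unique reads counted, these levels do not show how much each gene is used. *Atp5g3* was at 184, 201 and 202 CPM in wild type and 176, 167, 187 and 170.1 CPM in *Ddx6* KO, overlapping by 1 culture (−0.16; edgeR adjusted p = 0.02), a call lost when any of 4 cultures was left out. *Atp5g2* had 10 to 13 reads in wild-type total RNA and 3 to 6 in *Ddx6* KO (−1.33 ± 0.401 SE; edgeR adjusted p = 0.00438), and in 4sU RNA 41.0, 44.1 and 36.4 CPM against 27.5, 26.5, 18.7 and 24.7 CPM (−0.73; edgeR adjusted p = 7.42e-05).

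Not tested were *Cox4i2*, *Cox6a2*, *Cox7b2*, *Cox8b* and *Cox8c*, isoforms of other tissues such as lung, muscle and testis. *Cox4i2* had 1.67, 2.78 and 1.38 CPM in wild-type total RNA and 1.11, 0.653, 0.918 and 0.768 CPM in *Ddx6* KO, from 5 to 17 reads a library, and the others were at 0 to 3 reads.

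*Atp5g2* had little total RNA beside its 4sU RNA, and other subunits with such values were examined for sequence that occurs more than once among annotated transcripts. Only uniquely mapped reads were counted, so a read that matches 2 places equally well was not. Total RNA was read from 50-base single ends, and 4sU RNA from such ends and from pairs. The coding sequence of each subunit was cut into all 50-base windows, and each window was sought in transcripts of other genes with up to 2 mismatches. In 28 of the 81 tested subunits at least 50% of the coding windows were found elsewhere. Shown are windows of 3 genes whose entire coding sequence was found elsewhere, each given by its position in the coding sequence and with the genes that share it.
Cox7c, positions 71 to 120, in Gm12338 and Gm20091: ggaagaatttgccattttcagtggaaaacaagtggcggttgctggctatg
Atp5g2, positions 195 to 244, in Gm10175 and Gm10231: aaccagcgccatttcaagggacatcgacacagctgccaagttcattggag
Atp5l, positions 131 to 180, in Atp5l2-ps and Gm10221: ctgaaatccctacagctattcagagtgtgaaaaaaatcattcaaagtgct

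In wild type the log2 ratio of total to 4sU was −4.32 for *Cox7c*, −4.13 for *Atp5g2* and −3.60 for *Atp5l*. It was −2.12 for *Ndufab1*, which encodes the mitochondrial acyl carrier protein, −2.01 for *Atp5g1* and −1.91 for *Ndufs5*, all with at least 99.6% of coding windows found elsewhere. These were the lowest ratios among the subunits. *Uqcr11*, *Ndufb4*, *Cox5b* and *Uqcrb* also had 100% of coding windows found elsewhere, with ratios of 2.12, 1.04, 0.17 and −0.18. The next lowest ratios, −1.33 for *Cox6b2* and −1.25 for *Atp5j*, went with 0% and 12.7% of windows. Over the 28 subunits the median wild-type ratio was 0.63, in the other 53 it was 1.38, and in the 31 with no such window it was 1.47, beside 0.06 over all tested genes. Levels, per kilobase or not, and ratios of the 28 carry this limit. The 28 include *Ndufa7*, *Uqcr10*, *Cox6c* and *Cox7c*, whose values by culture are given above. In *Ddx6* KO against wild type, 23 of the 28 were lower and 0 higher in total RNA (0 at an unadjusted p below 0.05), with a median of −0.40. Of the other 53, 38 were lower and 4 higher, with a median of −0.32. Over all tested genes 31.0% were lower and 19.5% higher. In 4sU RNA the medians were −0.35 and −0.20. Copies outside annotated transcripts were not sought, and whether the shared sequence has a part in the differences was not tested.

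**Figure D5:**
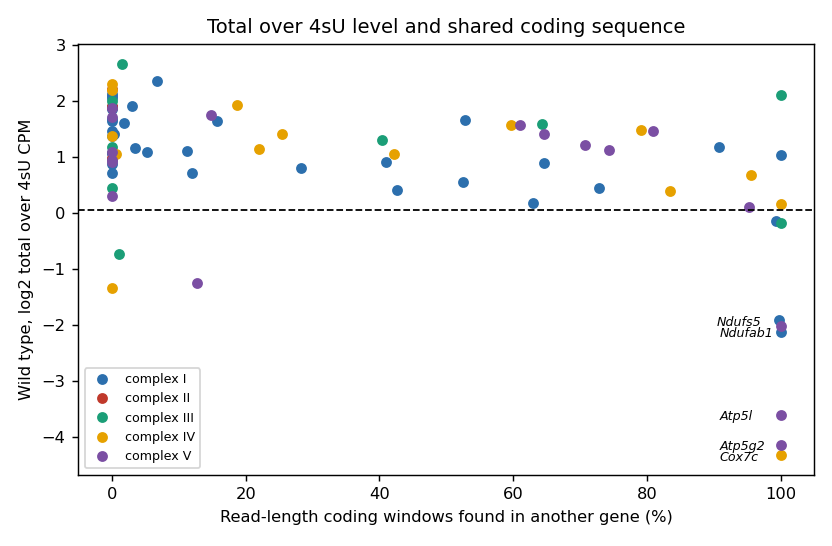
Wild-type log2 ratio of total RNA to 4sU RNA against the share of 50-base coding windows found in another gene's transcript, in percent, for the 81 tested subunits. The 6 lowest ratios, from −4.32 to −1.91, belong to subunits with at least 99.6% of windows found elsewhere. Other subunits with 100% of windows found elsewhere have ratios from −0.18 to 2.12.

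As a class the subunits had ratios above those of other genes. In wild type the median log2 ratio of total to 4sU RNA was 1.17 ± 0.0309 (SD of the culture medians, n = 3) and in *Ddx6* KO 1.137 ± 0.032 (n = 4), and 70 of 81 lay above the median of all genes. Complex II had the highest median, 1.90 ± 0.0571 in wild type and 1.49 ± 0.143 in *Ddx6* KO. In complex I it was 1.10 and 1.16, in complex III 1.32 and 1.39, in complex IV 1.21 and 1.06, and in complex V 1.03 and 0.95. The complexes hold different numbers of shared-sequence subunits, which were not removed here.

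The subunit mRNAs were short. Their principal transcripts had a median of 824 bases with a coding sequence of 410 bases, a 3′ UTR of 169 bases and 4 exons, against 3046, 1400 and 1017 bases and 9 exons for 12100 tested protein-coding genes. Among transcripts of up to 1000 bases, 35 of 47 subunits (74.5%) and 332 of 678 genes (49.0%) fell in total RNA, with medians of −0.36 and −0.31. Among longer transcripts, 26 of 34 subunits (76.5%) and 32.3% of 11422 genes fell, with medians of −0.35 and −0.06. In 4sU RNA 55.3% of the short subunits and 39.2% of the short genes fell, and 29.4% of the longer subunits and 18.8% of the longer genes. In total RNA the gap between subunits and genes of like length was wider for longer transcripts, a difference that was not tested.

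Promoters, read from 250 bases before to 50 bases after the first listed start in RefSeq (GRCm38.p6), were found for 69 of the 86 subunits. Short motifs of factors known to act on respiratory genes were sought on both strands, and a match is a description of letters and not of binding. The NRF1 motif GCGCATGC was in 10 of 69 promoters (14.5%), 5.82% of those of tested genes and 2.8% of all 27025. The YY1 motif AAGATGGC was in 9 (13%), against 4.89% and 2.88%, and the ERR motif TCAAGGTCA in 2 (2.9%), against 0.279% and 0.407%. The ETS motif CCGGAAGT was in 5 (7.25%), against 8.61% and 4%, and the E-box CACGTG in 6 (8.7%), against 10.6% and 7.24%. GGGCGG, bound by SP1, was in 42% against 65.9% and 35.9%, and CCAAT in 43.5% against 39.5% and 37.9%. Overlaps between motifs were allowed. As examples of the first kinds, 120 bases upstream of the start are given for *Ndufa11* and *Atp5g3*. Capitals mark the overlapping NRF1 matches on both strands in *Ndufa11*, and the ERR match, on the other strand, in *Atp5g3*.
Ndufa11, chr17:56717642-56717761, plus strand: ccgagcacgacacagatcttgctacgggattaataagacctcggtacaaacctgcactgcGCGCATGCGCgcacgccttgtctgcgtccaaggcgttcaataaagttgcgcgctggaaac
Atp5g3, chr2:73911327-73911446, minus strand: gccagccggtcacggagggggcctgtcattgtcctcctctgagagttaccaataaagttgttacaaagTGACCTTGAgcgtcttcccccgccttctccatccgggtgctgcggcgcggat
In total RNA *Ndufa11* was at 62.9, 62.9 and 59.4 CPM in wild type and 58.2, 58.4, 55.7 and 47.5 CPM in *Ddx6* KO, and was not called.

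Genes that assemble the complexes were examined beside the subunits. In total RNA 8 of 18 complex I assembly factors fell and 2 rose, 0 of 4 for complex II did either on the TMM scale (0 at an unadjusted p below 0.05 and 0 with DESeq2 or limma-voom), 3 of 6 for complex III fell, 7 of 21 for complex IV fell and 1 rose, and 3 of 5 for the ATP synthase fell, where 31.0% of all tested genes were lower and 19.5% higher. By library size only, these were 2 lower and 2 higher for complex I, 0 and 2 for complex II, 0 and 0 for complex III, 4 and 3 for complex IV, and 1 and 0 for the ATP synthase. With TMM within each RNA type 1 factor of complex II was called higher. The median log2 differences of these lists were −0.24, 0.07, −0.24, −0.10 and −0.31, and that of complex IV assembly became 0.05 on the library-size scale. In 4sU RNA 2 of the complex I factors rose and 3 fell, which became 5 and 1 on that scale, and for the ATP synthase 0 rose and 2 fell, which became 3 and 0.

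*Ndufaf4*, a complex I assembly factor, ran opposite to most subunits. It had 36.7, 36.2 and 36.6 CPM in wild-type total RNA and 54.4, 56.7, 59.5 and 54.4 CPM in *Ddx6* KO, without overlap (0.63; edgeR adjusted p = 1.17e-08). *Ndufaf6* had 29.1, 21.0 and 23.3 CPM in wild type and 14.9, 17.9, 14.8 and 15.7 CPM in *Ddx6* KO (−0.62; edgeR adjusted p = 7.21e-05). The groups were again separate. *Atpif1*, the ATPase inhibitory factor, had 198, 189 and 189 CPM in wild type and 134, 132, 138 and 127 CPM in *Ddx6* KO (−0.53; edgeR adjusted p = 6.06e-11). *Cox18*, an insertase for a mitochondrially encoded subunit, had 32.6, 34.6 and 34.3 CPM in wild type and 20.2, 25.1, 24.4 and 25.2 CPM in *Ddx6* KO (−0.51; edgeR adjusted p = 7.79e-05). *Uqcc2*, a complex III assembly factor, had 50.9, 47.8 and 46.4 CPM in wild type and 36.7, 38.6, 39.98 and 40.4 CPM in *Ddx6* KO (−0.31; edgeR adjusted p = 0.00637). In none of these did the groups overlap.

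*Cox20*, a complex IV assembly factor, rose in total RNA and fell in 4sU RNA. Total RNA went from 8.52, 8.68 and 10.6 CPM in wild type to 10.8, 13.1, 13.5 and 11.2 CPM in *Ddx6* KO, all higher (0.39; edgeR adjusted p = 0.0256). Its 4sU RNA fell by 0.57 on the log2 scale, and its total over 4sU was higher by 0.96 (edgeR adjusted p = 0.000419). Cytochrome c, which carries electrons from complex III to IV, has a somatic gene, *Cycs*, and a testis gene, *Cyct*. *Cyct* fell in total RNA by 0.91 on the log2 scale (edgeR adjusted p = 1.22e-06), from 20.9, 23.9 and 19.1 CPM to 8.59, 11.5, 11.1 and 13.97 CPM. *Cycs* was at 0.27 in total RNA (edgeR adjusted p = 0.14) and rose by 0.51 in 4sU RNA (edgeR adjusted p = 3.62e-05). Chromosomes were examined for the subunits only, so neither cytochrome c gene was set beside the chromosome 6 shift.

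Of 13 tested regulators of mitochondrial biogenesis, 2 rose and 4 fell in total RNA, where 19.5% of all genes rose and 31.0% fell, with a median of −0.05 that became 0.10 on the library-size scale. *Nrf1*, a factor for respiratory gene promoters, had 71.6, 77.5 and 65.5 CPM in wild type and 91.3, 90.7, 101.9 and 92.7 CPM in *Ddx6* KO, all higher (0.40; edgeR adjusted p = 5.82e-06). The chromosomes of these regulators were not examined, so this rise was not set beside the chromosome 6 shift described above. *Gabpa*, the DNA-binding subunit of the ETS factor GABP, had 343, 367 and 365 CPM in wild type and 279, 263, 261 and 281 CPM in *Ddx6* KO, all lower (−0.40; edgeR adjusted p = 4.77e-09).

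The subunits encoded in mitochondrial DNA complete the chain. Of 13 genes 7 were tested, and 3 of these fell in total RNA and all 7 in 4sU RNA, with median log2 differences of −0.27 and −0.77. Of all tested genes 31.0% fell in total RNA and 21.0% in 4sU RNA. In total RNA 2 of the 7 fell with limma-voom or by library size only. Their total over 4sU rose in 5 of 7, with a median of 0.61, where 3.78% of all tested genes and 0 of the 81 nuclear subunits rose. With limma-voom it rose in 3 of 7. *mt-Co1*, the catalytic subunit of complex IV, had 22642, 26091 and 20936 CPM in wild-type 4sU RNA and 13416, 12934, 12216 and 14770 CPM in *Ddx6* KO, without overlap (−0.80; edgeR adjusted p = 7.61e-16). In total RNA it fell by 0.33 on the log2 scale (edgeR adjusted p = 5.59e-06).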

How the data were processed

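Per the methods, adapters were removed with Cutadapt 1.14, and the authors aligned the reads to mm10 with STAR 2.5.3a, with unique hits only, and assigned them to genes by strand with featureCounts 1.5.3 (Gencode M14, no rRNA genes). The deposited tables hold raw counts, of reads in the first run and of read pairs in the second run of the 4sU libraries. Counts of both runs were summed here, since the methods merge them. The gene length deposited beside the counts was used only for levels per kilobase, and 92 rows of ERCC spike-ins, all at 0, were left out.

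A gene was tested if 3 or more of the 14 libraries reached 3 CPM. The test was edgeR 4.0.16 (quasi-likelihood, R 4.3.3), with TMM over all libraries and one model of genotype, RNA type and their interaction over 3 wild-type and 4 *Ddx6* KO cultures. Adjusted p-values are Benjamini-Hochberg values over all tested genes, called below 0.05. Log2 ratios per culture used a pseudocount of 0.5 CPM. The fits were checked on simulated counts with planted changes. Symbols, positions and transcripts came from Gencode M21 of the same build, and the principal transcript was the APPRIS one.

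Members and lists were chosen with earlier results of these data known. Values per culture are given for the called member with the smallest adjusted p in each complex, contrast and direction, for members on chromosome 6, for the less expressed isoforms beside their partners, and for the called gene with the smallest adjusted p in each direction of each list. *Ndufv2*, *Uqcrq*, *Ndufa11*, *Cycs* and *Cox4i2* were named with values outside this rule, after their values were seen. Total and 4sU RNA of a culture were split from the same RNA, per the labels. Deviations of both libraries from their group means correlated at 0.0035 to 0.026, and culture was a block in an alternative only. Alternatives were DESeq2 1.42.0, limma-voom (limma 3.58.1), other scalings and filters, each run, each clone, each culture left out, blocks, protein-coding genes only and a fold threshold. Leaving out chromosome 6 and members with shared coding windows was added after seeing the data. Pairs of replicate libraries differed by more than sampling noise. Values of 1 member are not reported here by name.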

Additional observations from a re-analysis of the deposited data

Results flagged for a closer look

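In 3 of 75 groups of 4 *Ddx6* KO values, a single culture lay far from the others, where chance gives about 1 in 20. Each gap below is that between the culture and its nearest neighbour, divided by the range of the 4. For *Ndufa7* in 4sU RNA the second culture of clone 2 had 40.7 CPM and the others 30.3 to 31.9 CPM, a gap of 0.841 of the range. For *Sdha* in total RNA the first culture of clone 1 had 236 CPM and the others 258 to 262 CPM, a gap of 0.832. For *Ndufa4* in total RNA the second culture of clone 1 had 131 CPM and the others 147 to 148 CPM, a gap of 0.943. The 3 cases fall in 3 different cultures, and in each the direction of the comparison with wild type was the same for all 4 cultures.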

How the results depend on the processing

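Of the 61 subunits lower in total RNA, 43 kept that call under every alternative fit that tested them, the fold threshold aside. So did 12 of the 36 lower in 4sU RNA, *Ndufa4* and *Ndufb2* among the 4 higher in total RNA, and *Ndufb2* in 4sU RNA and in the ratio. Lower calls in total RNA numbered 2 with a log2 change above 1 and 38 without the 28 shared-sequence subunits, where the median difference from all genes was −0.22. Higher calls numbered 2 with limma-voom (16.1% of all tested genes), and 0 without chromosome 6 or with a log2 change above 1. In 4sU RNA 13 were lower and 12 higher by library size only, 0 and 1 with a log2 change above 1, 20 lower without shared-sequence subunits (median difference −0.21), and 0 higher without chromosome 6. Scaling by library size only raises all 4sU differences by about the same amount, so subunits just below 0 turned positive, and of these *Uqcrc1*, at −0.00, was called higher at 0.20. Lower ratios numbered 6 with DESeq2 (5.01% of all tested genes), 5 with TMM within each RNA type (3.97%) and 6 without the filter. They numbered 7 with the first 4sU run, 6 with the second, 3 with clone 1, 5 with clone 2 and 1 with a log2 change above 1. For settings with no share here or above, the share of all tested genes is not given, and those counts are not set beside it. The ratio of *Ndufa11* was called higher with TMM within each RNA type and that of *Uqcrq* with clone 2, 1 subunit each. The cause of these changes was not tested, apart from the fewer cultures or genes that some settings hold.

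Leaving out each culture gave 55 to 59 lower and 3 to 4 higher in total RNA with median differences of −0.27 to −0.23, the last without the second culture of clone 2, and 32 to 36 lower and 3 higher in 4sU RNA. Lower ratios ranged from 5 to 12 and higher ones from 0 to 1. Shares of all tested genes are not given for these fits. Without the first or the second wild-type culture 5 were lower, without the second culture of clone 1 there were 7, and without that of clone 2 there were 6 lower, with *Ndufa11* higher. Replicate numbers do not pair the samples (correlations −0.07 to 0.10), and the blocked fits moved no count by over 1.5 times. With the number as a block 62, 33 and 11 subunits were lower in total RNA, 4sU RNA and the ratio, and with the culture as a block 12 ratios were lower. Subunits with few reads in total RNA (*Atp5g2*, *Atp5l*, *Ndufs5*, *Ndufa4l2*) are limited by depth.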
